A study of Mus musculus with 2 samples.

Results

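Ribosomal protein genes were examined for the peaks that an anti-Bcl3 antibody recovered in CGR8 mouse embryonic stem cells. The genes were chosen by name, as those that the authors' peak annotation lists with a symbol of the form Rpl or Rps and a digit, together with Rpsa, Rplp0, Rplp1 and Rplp2, without S6 kinases (Rps6k) and without pseudogenes carrying -ps. This gave 42 genes with 65 distinct peaks of 1130. The RefSeq gene table holds 89 protein-coding genes under the same name rule. Of these, 77 encode core subunits of the cytosolic ribosome and 12 are paralogs or genes that only share the name, of which Rpl39l, Rpl7l1, Rpl22l1 and Rps19bp1 were listed. Rps19bp1 encodes a nuclear protein that binds Rps19 and Sirt1, and it is no ribosomal subunit. Rplp0 was listed under its older symbol Arbp, which the name rule does not take, with 1 peak 198.4 kb from its start. The other 46 genes were not in the list, and this says nothing on whether Bcl3 binds there.

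The series holds 1 library of chromatin immunoprecipitation and sequencing (ChIP-seq) with anti-Bcl3 and 1 input library, both from undifferentiated CGR8 cells, an established line carrying no transgene or treatment named in the labels. The cells grew on 0.1% gelatin in medium with 15% serum replacement and leukemia inhibitory factor at 1000 U/ml. With 1 library per group there is no replicate and no test between groups. The input library was used here only as the deposited peaks reflect it, and read depth is unknown.

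Bcl3 is an atypical nuclear member of the IκB family that reaches DNA by way of p50 and p52, both NF-κB subunits. Ribosomal protein genes are short, highly transcribed genes whose products assemble with ribosomal RNA into the small (Rps) and large (Rpl) subunits, and fast-dividing stem cells need much of them. Most of their mRNAs in mammals begin with a tract of pyrimidines (the TOP motif), through which the kinase mTOR controls their translation, and several introns of these genes encode small nucleolar RNAs that guide the modification of ribosomal RNA. Many processed pseudogenes resemble their exons, and how reads with several matches were placed is not given in the sources used here.

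Peaks near a ribosomal protein gene were few. Within 5 kb of the transcription start site (TSS), 7 genes had 8 peaks, Rps27a with a pair and Rpl5, Rps15a, Rpl31, Rps3a, Rps20 and Rps15 with 1 each. These 7 were also the members that the authors' closest-transcript sheet gave as the closest gene of a peak. Of the 8 peaks, 7 lay downstream of the TSS and 1 upstream. Against all 89 genes the share with a peak within 5 kb was 7.87% (exact Clopper-Pearson 95% interval 3.22 to 15.5%, counting error only), beside 1.26% of all 21900 protein-coding genes (276 genes). The share that was the closest gene was also 7.87%, beside 2.52% of all protein-coding genes. Within 1 kb it was 5 genes (5.62%, beside 0.817%), within 10 kb 8 genes (8.99%, beside 1.79%) and within 50 kb 9 genes (10.1%, beside 5.91%). The genes were chosen with earlier results of these data known, so these shares are a description and were not tested. The last gene inside the window was Rps15 at 2873 bp, and the next outside was Rpl27a at 6129 bp.

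**Figure D1:**
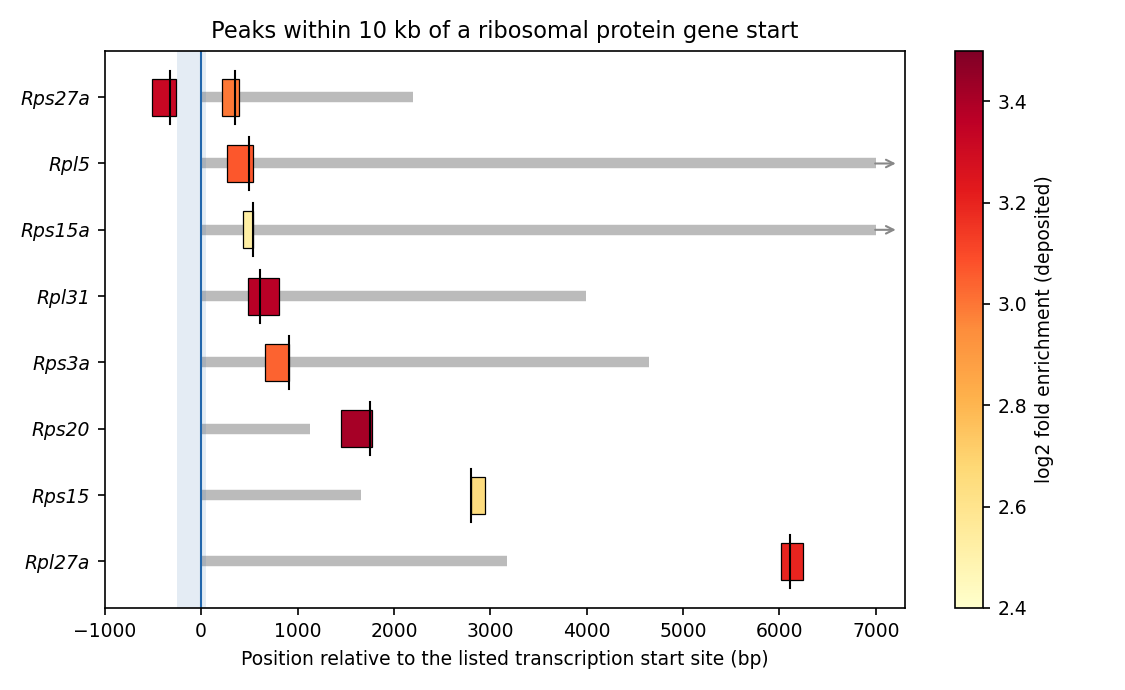
Peaks (boxes, coloured by the deposited log2 fold enrichment, with a black line at the summit) along the 8 ribosomal protein genes that had one less than 10 kb away from the start site. The x axis is the position relative to the listed start in bp, grey bars are the genes, arrows mark genes that run on, and the shaded band covers 250 bp before to 50 bp after the start, where none of the 9 peaks lies.

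Rps27a, which encodes ubiquitin fused to a protein of the small subunit, was the member with the nearest peaks, 1 on each side of its start. The upstream peak, on chromosome 11 at 29448300 to 29448549 in mm9, had its midpoint 385 bp before the TSS, a log2 fold enrichment of 3.32 and the lowest false discovery rate in the list, 0.179. It ran from 510 to 261 bp before the TSS. The gene 1700034F02Rik (Clhc1) starts close by on the opposite strand, and the closest-transcript sheet placed this peak in its intron 1, 475 bp from that start. The downstream peak, at 29447650 to 29447824, lay 302 bp after the Rps27a start. Its log2 fold enrichment was 3.00, its −log10 Poisson p 7.75 and its false discovery rate 0.286. Its midpoint was in the 5′ UTR part of exon 2 and its summit in the coding part of that exon, which holds the start codon. The pair therefore flanks the Rps27a start on both sides, and with peaks at most 1000 bp apart merged it became 1 region. The start of 1700034F02Rik also lies between the pair. It is nearer to the midpoint of the downstream peak than the Rps27a start is.

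Rpl5, Rps15a and Rpl31 had a peak in an early intron. Rpl5 encodes the large-subunit protein that carries 5S ribosomal RNA and, with Rpl11, binds Mdm2 when ribosome assembly is disturbed. Its peak, on chromosome 5 at 108329875 to 108330149, lay in intron 1, 404 bp after the TSS, and reached 3.07 in log2 fold enrichment at a false discovery rate of 0.253. Rpl31, a large-subunit protein at the exit of the peptide tunnel, had a stronger peak, 649 bp after the TSS. It lay on chromosome 1 at 39425250 to 39425574. The closest-transcript sheet, with another start, placed this peak 555 to 879 bp after it, in intron 2. Its log2 fold enrichment was 3.37 and its false discovery rate 0.179. The peak of Rps15a, a small-subunit protein, was the weakest of the group, on chromosome 7 at 125259125 to 125259224. It was 100 bp long and lay 486 bp after the TSS, at 2.53 in log2 fold enrichment and 0.607 in false discovery rate. The wider annotation called this place 5′ UTR, whereas the exons of the closest transcript put it in intron 1, between the noncoding start of the mRNA and the coding region.

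Rps3a (Rps3a1 in current naming), another small-subunit protein, had a peak on chromosome 3 at 85945600 to 85945849 that covered exon 2. Of its 250 bp, 104 were in that exon. Its midpoint was 790 bp after the TSS, its log2 fold enrichment 3.04 and its false discovery rate 0.263. Its summit lay at the far edge, in intron 2. Of all 7 peaks given a member as closest gene, those of Rps27a and Rps3a were the only ones to touch an exon.

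Rps20 and Rps15, proteins of the head of the small subunit, had their peaks past the end of the gene. The Rps20 peak, on chromosome 4 at 3760975 to 3761299, lay 1609 bp after the TSS and 482 bp beyond the end of this short gene. Its log2 fold enrichment of 3.41 (10.6-fold) was the highest of the 8, with a false discovery rate of 0.179. The Rps15 peak, on chromosome 10 at 79758000 to 79758149, lay 1218 bp beyond the gene's end, at 2.65 with a false discovery rate of 0.507, and the next start was that of Apc2, 6490 bp away. Rpl27a, of the large subunit, had a peak on chromosome 7 at 116668725 to 116668949, 2955 bp beyond its end (log2 fold enrichment 3.20, false discovery rate 0.199). No listed start was nearer to this peak than that of Rpl27a. However, the peak overlapped an exon of St5, a gene on the other strand, which the closest-transcript sheet named instead.

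None of these 9 peaks overlapped the stretch from 250 bp before to 50 bp after the member's start, a share of 0 whose exact 95% interval reaches 33.6%. Starts outside the wider annotation, such as that of 1700034F02Rik beside Rps27a, were not looked at here. Of the 325 peaks of the whole list that lay within 10 kb of a start, 70 (21.5%) overlapped that stretch of some listed gene. That share lies inside the interval, and the shares were not tested against each other. The 9 peaks include the pair at Rps27a, whose upstream peak ended 261 bp before the start, just outside the stretch. The sequences of the peaks could not be shown, since no mm9 genome was used. The start sites themselves are shown because the TOP tract at the start is a feature these genes are known for. The RefSeq promoters (GRCm38.p6) held 6 of the 8 genes. The lines give 20 bases before to 10 bases after the RefSeq start, 5′ to 3′ on the gene's strand, with the longest unbroken run of C and T in capitals. They lie at chr5:107900508-107900537 (plus strand, Rpl5), chr7:118116138-118116167 (minus, Rps15a), chr1:39367831-39367860 (plus, Rpl31), chr3:86142659-86142688 (minus, Rps3a1), chr10:80292411-80292440 (plus, Rps15) and chr7:109519175-109519204 (plus, Rpl27a).
Rpl5: CTCTTTCTCacgtcgcttgcgtgctggtgg
Rps15a: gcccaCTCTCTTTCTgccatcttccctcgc
Rpl31: caCCTCTTCCTCCTCgcctccccgtgaccc
Rps3a1: gaTTCTTaaagccggaagggcgaaagagca
Rps15: gCCCTCCCggcagagctcgcgataactgcg
Rpl27a: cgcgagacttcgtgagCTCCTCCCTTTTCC

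A run of at least 8 pyrimidines in this stretch was found in 4 of these 6 genes, Rpl5, Rps15a, Rpl31 and Rpl27a. In Rpl5, Rps15a and Rpl31 the run ended before the RefSeq start, and in Rpl27a it spanned that start. Such a run was found in 30 of the 69 name-rule genes with a promoter sequence (43.5%) and in 14.4% of all 17492 protein-coding genes with one. These counts take a run anywhere in the stretch, so they are no counts of TOP tracts at the start of the mRNA. The ETS core CCGGAAG, searched on both strands of the 300 bases from 250 before to 50 after the start, was in 26 of 69 (37.7%), against 12.9% of all. Among the near-peak genes it was in Rpl31, Rps3a1 and Rpl27a, shown with 9 bases on each side and the match in capitals, with Rpl27a holding it on the opposite strand. The match begins at base 9 after the start in Rpl31, 9 before it in Rps3a1 and 169 before it in Rpl27a.
Rpl31: ccccgtgacCCGGAAGttgtacggc
Rps3a1: ttcttaaagCCGGAAGggcgaaaga
Rpl27a: ctaccggggCTTCCGGgggcgggcg

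The YY1 core AAGATGG was in 10 of 69 (14.5%), among them Rps15a, against 7.18% of all. The κB motif of NF-κB was in 6 of 69 (8.70%) and in 0 of the 6 near-peak genes, against 10.5% of all. These matches describe letters in a reference window that the peaks do not cover, and they are no evidence of binding or of its absence.

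The 42 genes otherwise appeared in the list through distant peaks. The nearest listed peak lay beyond 10 kb for 34 of them and beyond 100 kb for 29, with a median over the 42 of 218.5 kb and a range from 302 bp to 964.2 kb. These distances hold within the listing, where every member entry was within 1000 kb and a member peak had up to 21 genes. A nearer peak that did not list the gene would not be counted. Being listed is what chose the genes. By gene identifier, 43 of 89 (48.3%, Rplp0 included) were listed, beside 40.4% of all protein-coding genes, and the median distance of their nearest peak was 215.3 kb, beside 233.5 kb over all listed protein-coding genes. Of the 69 pairs of gene and peak, 31 beyond 5 kb were upstream and 30 downstream of the TSS. Among the starts in the wider annotation, that of a ribosomal protein gene was nearest for 9 of the 65 peaks, those within 10 kb. It was nearest for 0 of the 56 peaks farther away. For the upstream Rps27a peak that annotation gave Mtif2, 21968 bp away, as the second gene. The start of 1700034F02Rik was thus not weighed in this count. Among the genes listed for those 56 peaks, the member stood at a median place of 8.5 by distance.

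**Figure D2:**
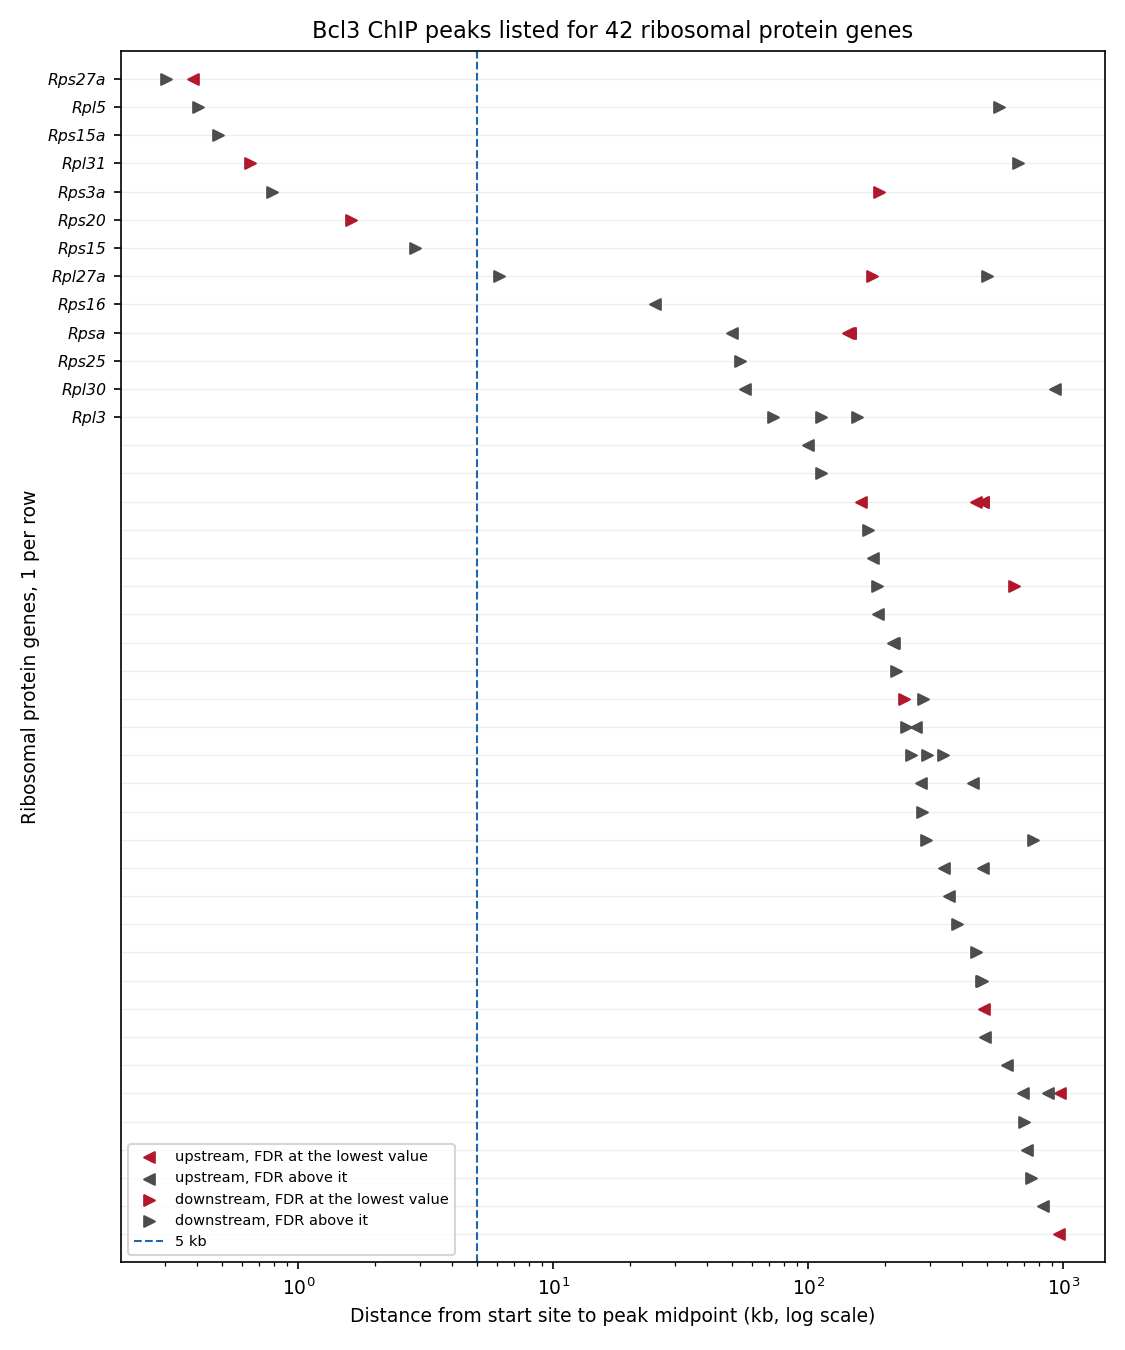
Distance in kb (log axis) from the start site to every listed peak of the 42 genes, sorted by the nearest peak, with 1 row per gene and names for those with a peak within 100 kb. Triangles pointing left are upstream and those pointing right downstream, red marks the lowest false discovery rate, and the dashed line is at 5 kb. The nearest peaks of 7 genes lie left of that line and most others between 100 and 1000 kb.

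Between 10 and 100 kb, 5 members had their nearest peak, each with another gene closer by. Rps16 had a peak 25.0 kb upstream (log2 fold enrichment 2.84), in an intron of Supt5h. Rpsa, the small-subunit protein also known as the laminin receptor, had one 50.3 kb upstream (2.99), where Cx3cr1 was the nearest start. The nearest peaks of Rps25 (54.0 kb, 2.63), Rpl30 (56.5 kb, 2.99) and Rpl3 (72.7 kb, 2.74) lay nearest to Upk2, Pop1 and Pdgfb.

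The members farthest from their nearest listed peak were Rpl17 (964.2 kb), Rps23 (833.3 kb), Rps13 (746.2 kb), Rpl34 (719.9 kb) and Rps4x (701.6 kb). The peak listed for Rps23 lay 97 bp from the start of Tmem167. Rpsa and Rpl37a, of the large subunit, had the most listed peaks, 4 each. For Rpsa, 3 of the 4 were the peaks at the start and in the gene body of Axud1 (Csrnp1), 142.9 to 145.9 kb upstream, with log2 fold enrichments of 3.54, 3.61 and 3.58. Those of Rpl37a lay 160.5 to 484.7 kb upstream. Members that shared a peak were Rpl3 with Rps19bp1, at 3 peaks around Cbx7 and Pdgfb, and Rpsa with Rpl14, at 1.

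In strength, the peaks listed for these genes had medians close to those of the whole list. The log2 fold enrichment of the 65 had a median of 2.94 (range 2.53 to 3.73, 95% interval of the median 2.82 to 3.07), beside 2.93 over all 1130 peaks. The median −log10 Poisson p was 5.995, beside 5.80. At the lowest false discovery rate were 17 of the 65 (26.2%, exact 95% interval 16.0 to 38.5%), beside 238 of 1130 (21.1%). No peak of the whole list had a rate of 0.05 or less (0 peaks). The fold enrichment, Poisson p and false discovery rate are the authors' values, and their header leaves the reference of the fold unnamed.

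The 8 peaks within 5 kb reached a median log2 fold enrichment of 3.05, with 6 of 8 above the median of all peaks and Rps15a and Rps15 below it. Over the 247 peaks within 5 kb of any start the median was 2.95. In Poisson score the median −log10 p of the 8 was 5.31 (range 5.04 to 7.75), beside 5.86 over those 247, and 5 of 8, those of Rpl5, Rps15a, Rpl31, Rps20 and Rps15, lay below the median of all peaks. The pair at Rps27a and the peak of Rps3a lay above it. At the lowest false discovery rate were 3 of the 8 (37.5%, exact 95% interval 8.52 to 75.5%), at Rps20, Rpl31 and upstream of Rps27a, beside 74 of the 247 peaks within 5 kb of any start (29.96%), a share inside that interval.

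**Figure D3:**
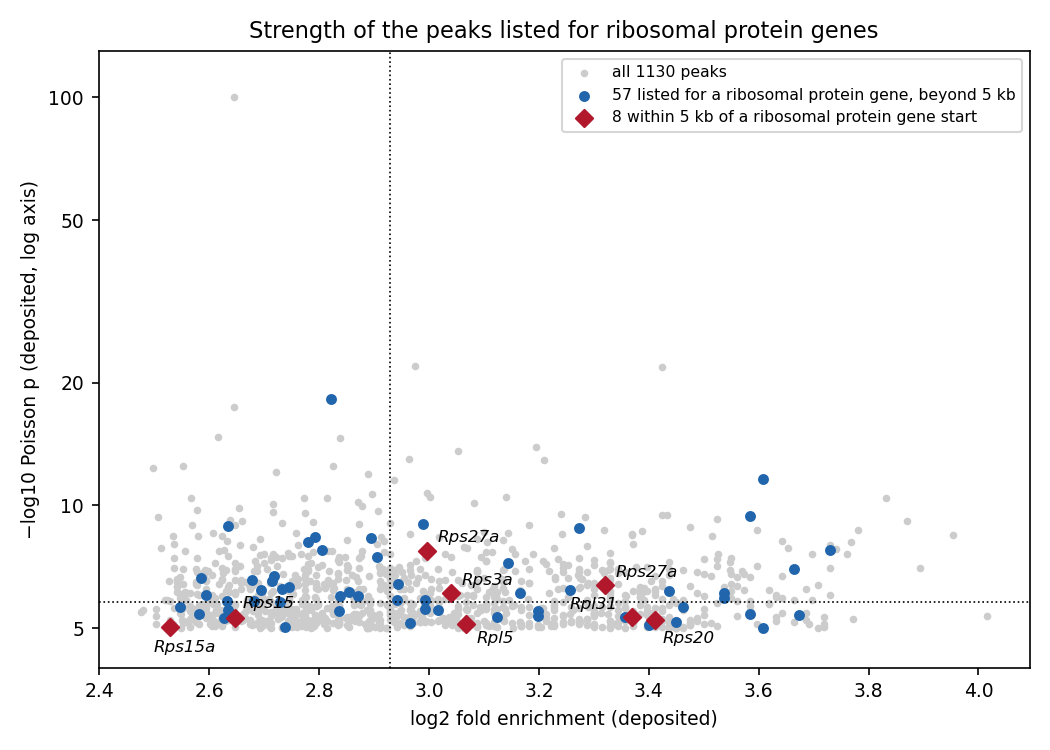
Deposited log2 fold enrichment (x) against deposited −log10 Poisson p (y, log axis) of all 1130 peaks (grey), the 57 listed for a ribosomal protein gene beyond 5 kb (blue) and the 8 within 5 kb (red, named). Dotted lines are the medians of all peaks, and 5 of the 8 red points lie under the horizontal one.

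The strongest peaks listed for a member were far from it. By fold enrichment these were a peak 638.1 kb from Rpl4 (log2 3.73), 1 of Rpl37a (3.67), 1 at 189.2 kb from Rps3a (3.66), and 1 each of Rpl37a and Rpsa, equal at 3.61. By Poisson score the first was a peak shared by Rpl3 and Rps19bp1 (18.2), followed by a pair at Axud1 listed for Rpsa (11.6 and 9.44) and the peak shared by Rpsa and Rpl14 (9.02).

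The genes were short, and the part of gene length in the counts was not tested. In the RefSeq table the 89 had a median length of 3.18 kb, all protein-coding genes 17.1 kb, and the 552 closest genes of a peak 44.9 kb. For the 7 members with such near peaks the median was 4.07 kb. Genes for small nucleolar RNAs lay inside 3 of these 7 (Rpl5, Rps20 and Rps3a1) and inside 30 of all 89.

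Near peaks were also counted in other lists of the translation machinery, beside the 1.26% of all protein-coding genes, with no test of any list. Among mitochondrial ribosomal proteins, 2 of 78 (2.56%) had a peak within 5 kb, Mrpl44 (157 bp after the TSS, log2 fold enrichment 3.22) and Mrps14 (234 bp, 2.83). Among initiation, elongation and release factors, 1 of 74 (1.35%) did. This was Eef1a1, the factor that brings aminoacyl-tRNA to the ribosome and itself a TOP mRNA gene, with a peak 206 bp after its TSS (3.19, −log10 Poisson p 7.59). Among 44 genes of ribosome biogenesis and RNA polymerase I, Nop56 and Nop2 had one (4.55%). Nop56, a core protein of box C/D small nucleolar particles, had peaks 227 and 1002 bp after its TSS at 3.30 and 3.40, both at the lowest false discovery rate. Nop2, an rRNA methyltransferase, had a peak 251 bp upstream (3.26, false discovery rate 0.183).

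Of 13 genes known to control ribosomal protein genes or TOP mRNAs, Mtor and Sp1 had a peak within 5 kb (15.4%, exact 95% interval 1.92 to 45.4%). The Mtor peak lay 228 bp upstream of its start (log2 fold enrichment 3.48) and that of Sp1, a GC-box factor, 1384 bp upstream (3.38). Of 10 S6 kinase genes, 1 had a near peak (10%, exact 95% interval 0.253 to 44.5%), Rps6ka2, at 439 bp upstream (2.66, false discovery rate 0.485). Both shares were above the 7.87% of the ribosomal protein genes, in lists of few genes. Fau, which encodes a small-subunit protein made as a fusion to a ubiquitin-like protein, falls outside the name rule and had no listed peak.

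**Figure D4:**
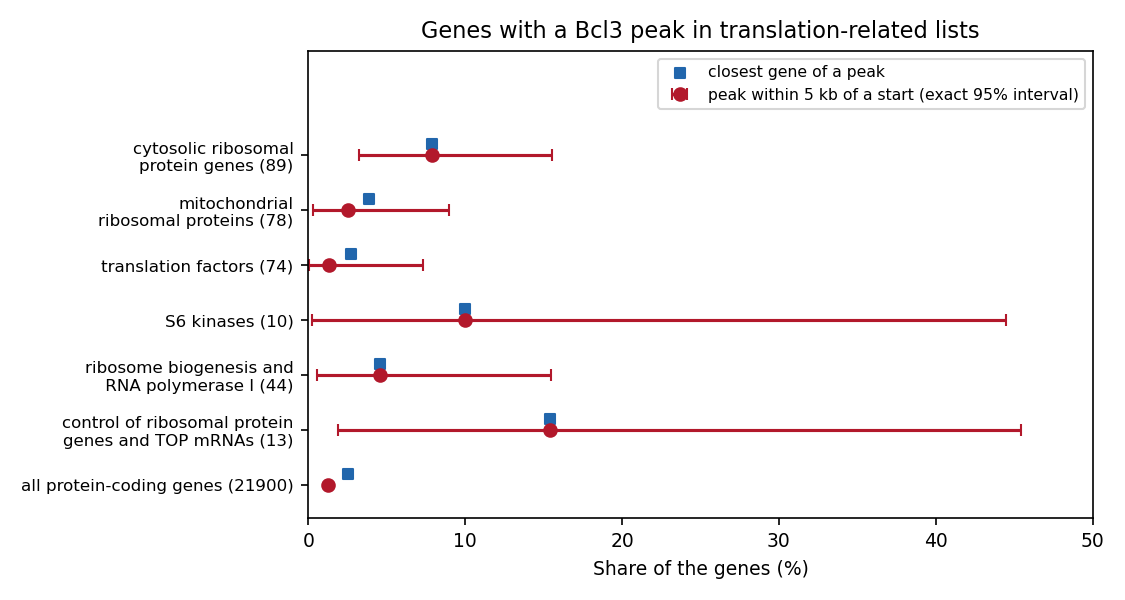
Share of genes in % with a Bcl3 peak within 5 kb of a listed start (red circles with exact 95% intervals, counting error only) and share that were the closest gene of a peak (blue squares), for 6 lists and all 21900 protein-coding genes, with list sizes in brackets. Ribosomal protein genes stand at 7.87% for both measures, below the 10% of the S6 kinases and the 15.4% of the list of genes that control ribosomal protein genes or TOP mRNAs, and the intervals of these short lists are wide.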

How the data were processed

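ChIP-seq with anti-Bcl3 was measured in 1 library of CGR8 cells, with 1 input library, from enzyme-digested nuclei per the labels' protocols. The submitters' processing notes name the build mm9. No source used here names an aligner, a peak caller or a threshold, or says how input reads entered. The authors deposited for each peak, per the file headers, a false discovery rate (read as a q-value), a log2 fold change, the −log10 of the smallest Poisson p-value, and a length. Further deposited sheets list RefSeq genes per peak with signed distances from the peak midpoint, which were recomputed and differed by at most 0.5 bp, and the closest transcript with its exons for 623 peaks. Depth is unknown.

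Genes were matched to a RefSeq table of GRCm38.p6 by gene identifier, accession or symbol (14536 of 14602 entries). That table was used only for names, class, length, neighbours and the gene totals behind the shares. A gene of that table that the authors' annotation did not hold could not be listed, and such genes were not counted apart. All 42 members matched. For several transcripts the smallest distance was used. The closest-transcript sheet put the starts of Rpl5, Rpl31, Rps3a and Rps15 elsewhere. The distances given for members are those of the wider annotation. The members and lists were chosen with earlier results of these data known. Named are members with a peak within 50 kb or as closest gene, the 5 farthest, those that share a peak or have the most peaks, and the 5 strongest peaks by fold and by Poisson score, of which 1 is not reported here. Other names, among them Rps25, Rpl30, Rpl3 and Fau, were chosen after the values were seen. Shares have exact Clopper-Pearson 95% intervals, medians order-statistic 95% intervals. No test was run. The code was tested on simulated data (Python 3.11.15, pandas 2.3.3, SciPy 1.17.1). Alternatives were stricter peak lists, other windows, the summit as reference point, merged peaks and core subunits only.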

Additional observations from a re-analysis of the deposited data

How the results depend on the processing

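The counts near genes depended on the peak list used. With only the 238 peaks at the lowest false discovery rate, 3 members (Rpl31, Rps20 and Rps27a) had a peak within 5 kb and 2 were a closest gene, 17 peaks were listed for members, and their median log2 fold enrichment was 3.537, where all 238 peaks had 3.44. In the 565 peaks with the greater Poisson score, 2 members (Rps27a and Rps3a1) had a peak within 5 kb, 2 were a closest gene, and 39 peaks were listed. In those lists 0.370% and 0.685% of all protein-coding genes (81 and 150 genes) had a peak within 5 kb. A closest gene were 136 and 286 of the 21900 protein-coding genes. In the full list 276 genes had a peak within 5 kb and 552 were a closest gene, with 7 members in each. Both alternatives keep fewer peaks by construction. The cause of the lower member counts was not tested. Windows of 1, 10 and 50 kb gave 5, 8 and 9 members, and the nearest gene of the wider annotation gave 8. For that last count no share over all genes is given. Distances from the summit and merging within 1000 bp left the count within 5 kb at 7. With core subunits only, an alternative chosen after seeing the data, the count was 7 of 77 (9.09%). Unknown depth limits every statement about genes without a peak. No paired analysis was possible because each group holds 1 library.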

Other observations

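A few distant entries placed members beside genes of other pathways. The peak listed for Rpl24, 100.1 kb upstream of its TSS (log2 fold enrichment 3.14, −log10 Poisson p 7.23, false discovery rate 0.224), had Nfkbiz as its nearest start, at 27.4 kb. The closest-transcript sheet named another gene, Fam55c, for this peak. Nfkbiz encodes IκBζ, like Bcl3 an atypical nuclear IκB protein. Of the 56 member peaks beyond 10 kb, 21 (37.5%, exact 95% interval 24.9 to 51.5%) lay within 5 kb of the start of another gene, beside 247 of all 1130 peaks (21.9%) within 5 kb of any start. These shares were not tested, and the sets are unlike. Each of the 56 had a member listed within 1000 kb, at a median place of 8.5 among its genes. Of all 1130 peaks, 1094 had any listed start within 1000 kb. Among the 21, 1 peak each lay 262 bp from the start of Axud1 (Csrnp1), 97 bp from Tmem167, 145 bp from Nubp1 and 89 bp from Kcnma1. These genes were named after their values were seen.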
